A study of Homo sapiens with 9 samples.

Results

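Integrins and laminins are the receptors and the ligands through which an epithelial cell holds on to its basement membrane, and their genes are described here in 786-O cells depleted of ARNT or of BMAL1. The genes were chosen by symbol, as rows for integrin alpha subunits (ITGA), integrin beta subunits (ITGB) or laminin chains (LAMA, LAMB, LAMC). The choice was made with earlier results of these data known. The 37 genes described here, of the 38021 in the table, were 18 alpha subunits, 8 beta subunits and 11 laminin chains. Changes were described for the 24 of them with a mean of at least 50 counts over the 9 libraries, which were 17 integrins and 7 laminins.

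The cells were 786-O, an established human line of clear cell renal cell carcinoma. The line has lost VHL function, which leaves the hypoxia-inducible factor HIF2α stable at normal oxygen. All 9 libraries came from cells labelled with genotype WT that had been infected with a PLKO.1 lentivirus and selected in puromycin, so the control libraries carried the vector and the drug selection too. A control hairpin (shControl), a hairpin against ARNT (shARNT) and a hairpin against BMAL1 (shBMAL1) were each represented by 3 libraries labelled as biological replicates. Each knockdown rested on a single hairpin, so an effect of the hairpin on other transcripts cannot be told apart from an effect of its target. ARNT is the classical dimer partner of HIF2α, BMAL1 is the related protein that pairs with CLOCK in the circadian clock, and the libraries were made to compare what each contributes to HIF2α-driven expression. The same 3 control libraries served for both knockdowns. What marks separate replicates was not stated, so p values measure the spread between these libraries.

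An integrin is a pair of membrane proteins, one alpha and one beta subunit, that binds the matrix outside the cell and links it to actin or to keratin inside. A laminin is a cross-shaped trimer of one alpha, one beta and one gamma chain, and trimers assemble into the sheet that underlies epithelia. Kidney epithelium rests on laminins that contain the LAMA5 chain, while the LAMA3 and LAMB3 chains are best known from skin and other stratified epithelia and from migrating or invasive carcinoma cells. The α3β1 and α6β4 integrins are the main receptors for laminins of both kinds. RNA levels do not show which pairs or trimers were assembled.

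Sequence upstream of the genes is shown for 3 members, because ARNT and BMAL1 are DNA-binding proteins with short known motifs. The pair of HIF2α with ARNT binds ACGTG or GCGTG, and the pair of BMAL1 with CLOCK binds the E-box CACGTG, which contains ACGTG on both strands. Each sequence is the 250 bases before a RefSeq start site, on GRCh38.p14 and read 5′ to 3′ on the strand of the gene, with matches to any of these motifs on either strand in capitals. LAMA5 had the largest rise of any described member, ITGB8 rose in shBMAL1 and not in shARNT, and ITGA6 was the only matched member with an E-box.
LAMA5 (chr20:62367313-62367562, minus strand): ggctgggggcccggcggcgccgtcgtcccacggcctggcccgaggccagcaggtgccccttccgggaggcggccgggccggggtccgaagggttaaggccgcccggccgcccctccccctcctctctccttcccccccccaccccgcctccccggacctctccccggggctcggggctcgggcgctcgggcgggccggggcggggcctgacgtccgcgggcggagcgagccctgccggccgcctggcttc
ITGB8 (chr7:20330650-20330899, plus strand): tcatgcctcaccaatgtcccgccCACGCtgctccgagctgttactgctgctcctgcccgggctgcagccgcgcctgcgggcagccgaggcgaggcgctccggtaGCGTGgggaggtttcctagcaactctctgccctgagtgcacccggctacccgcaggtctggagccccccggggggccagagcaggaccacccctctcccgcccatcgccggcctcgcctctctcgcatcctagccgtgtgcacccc
ITGA6 (chr2:172427086-172427335, plus strand, the first of its RefSeq starts): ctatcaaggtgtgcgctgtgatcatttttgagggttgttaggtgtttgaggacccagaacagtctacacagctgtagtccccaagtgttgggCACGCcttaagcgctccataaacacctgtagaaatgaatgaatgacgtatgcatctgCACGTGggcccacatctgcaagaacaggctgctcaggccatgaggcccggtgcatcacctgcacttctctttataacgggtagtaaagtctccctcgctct
The window of LAMA5 held none of the 3 motifs. The window of ITGB8 held GCGTG at −227 on the minus strand and at −146 on the plus strand, counted from the start site. In ITGA6 the E-box began at −101, and GCGTG lay at −158 on the minus strand. A later RefSeq start of ITGA6 had a window with ACGTG at −169 on the minus strand and no E-box. Windows that ran from 250 bases before to 50 bases after a start were searched for the 19 described members that the RefSeq table held, among them 8 of the 9 members with changes of at least 1.5-fold. The E-box was found in 1 of the 19 genes and in 8.77% of 27305 genes with such a window, ACGTG in 1 of the 19 and in 24.9% of all, and GCGTG in 10 of the 19 and in 40.6% of all. LAMB3 matched none of the motifs in any of its windows. These matches are letters in a window and do not show binding.

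Each library held between 33793045 and 35444735 reads, of which 0.692% to 0.758% fell in the 37 genes. Both targets were lower in their own group. ARNT had 2352 ± 184 normalised read counts in shControl and 1225 ± 23.2 in shARNT (SD, n = 3), which is −0.94 on the log2 scale (SE 0.07, DESeq2 adjusted p 8.81e-35). BMAL1, listed as ARNTL, had 761 ± 32.0 in shControl and 326 ± 29.2 in shBMAL1, which is −1.23 on the log2 scale (SE 0.11, adjusted p 2.51e-25). Each target was also slightly lower in the other knockdown, ARNT by −0.23 in shBMAL1 (adjusted p 0.0187) and ARNTL by −0.26 in shARNT (adjusted p 0.0294). All 8 markers of renal carcinoma cells had a mean of at least 50 counts, with summed levels of 149503 to 151592 in shControl, 139537 to 142400 in shARNT and 123373 to 137027 in shBMAL1. Of the markers of other cells, none of 5 for endothelium reached that mean, 1 of 5 for leukocytes did (CD68, a lysosomal gene that other cells also express) and 2 of 6 for fibroblasts did (COL1A1 and LUM). In each of these lists 1 gene had no read (CDH5, CD3E and COL1A2), and VWF, KDR, PTPRC, COL3A1 and DCN had means under 1 normalised read count. PECAM1, TEK and CD14 had means of 5.52, 7.31 and 10.5, ITGAX and PDGFRB of 22.1 and 20.2, and COL1A1 and LUM of 134 and 118. The summed fibroblast markers ran from 232 to 289 in shControl, 199 to 209 in shARNT and 334 to 399 in shBMAL1. Those of leukocytes, nearly all CD68, ran from 7148 to 7909 in shControl, 6765 to 7382 in shARNT and 5356 to 6768 in shBMAL1. The part of either list in the results was not tested.

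Of the 13 genes below a mean of 50 counts, ITGA8 and LAMC3 had no read in any library, where up to 3 reads per library could go unseen. The leukocyte alpha subunits ITGAL, ITGAD, ITGAM and ITGAX, which pair with ITGB2 on blood cells, had means of 0.333, 2.56, 8.56 and 22.2 counts. ITGA2B of platelets had a mean of 16.6 counts, the collagen receptors ITGA10 and ITGA11 had 24.0 and 7.78, and ITGA9 had 6.33. Among the laminins, LAMB4 had a mean of 12.7 counts, LAMA1 of 22.4 and LAMA4 of 39.5. Of these genes LAMA4, an alpha chain of blood vessel and muscle laminins, was called once. It had 29.2, 40.0 and 18.2 normalised read counts in shControl and 59.4, 68.7 and 32.8 in shARNT, with overlapping libraries, and a log2 fold change of 0.88 (SE 0.39, DESeq2 adjusted p 0.0739). That call was lost without shControl replicate 1 or 3 or shARNT replicate 1 or 2, with adjusted p from 0.167 to 0.358. LAMA4 was not called in shBMAL1 (0.25, adjusted p 0.703). The other genes of this paragraph were called in no comparison.

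To compare genes with each other, normalised read counts were divided by the length of the canonical transcript in kilobases. On this scale ITGB1, the beta subunit shared by most matrix-binding integrins, led with 15228 ± 887 per kilobase in shControl (SD, n = 3). ITGA3, the alpha subunit of the α3β1 laminin receptor, followed with 12557 ± 115. ITGB5, which pairs with ITGAV, had 6962 ± 122. The fibronectin receptor subunit ITGA5 had 3492 ± 39.6 and ITGAV had 1939 ± 129. The remaining described alpha subunits were far lower. ITGA6, another laminin receptor, had 382 ± 16.4, the collagen receptor ITGA2 had 207 ± 2.84, and ITGAE, the partner of ITGB7, had 148 ± 6.26. Below these stood ITGA1 with 45.0 ± 6.15, ITGA7 with 14.1 ± 3.33 and ITGA4 with 5.43 ± 1.57. In shControl no neighbours in the order of these alpha subunits overlapped in their libraries. In shARNT the order of ITGA2 and ITGAE was turned, with 126 ± 4.6 for ITGA2 and 169 ± 24.1 for ITGAE, and in shBMAL1 the libraries of these genes overlapped. Among the beta subunits ITGB4, the hemidesmosome subunit that pairs with ITGA6, stood at 33.3 ± 1.13 per kilobase in shControl and overlapped with ITGB6 at 29.8 ± 3.72 and with ITGB2 at 21.6 ± 13.6.

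LAMB1 was the leading laminin chain, with 5354 ± 131 per kilobase in shControl, followed by LAMC1 with 1955 ± 122. LAMB2, at 1311 ± 36.1, overlapped with LAMA3, at 1260 ± 50.4. LAMA3 also has a shorter form from an internal start, and how much of each form these cells made was not measured, so its level depends on the length used. LAMB3 had 949.9 ± 64.0 per kilobase. LAMA5 stood at 98.8 ± 1.85 and LAMA2, the alpha chain of muscle, at 12.1 ± 3.74. The chains kept this order in shARNT. In shBMAL1 LAMA3 and LAMB2 changed places with overlapping libraries, and LAMA5, with 416 ± 28.7, had passed LAMB3, with 379 ± 24.2, though the libraries of LAMA5 and LAMB3 overlapped.

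**Figure D1:**
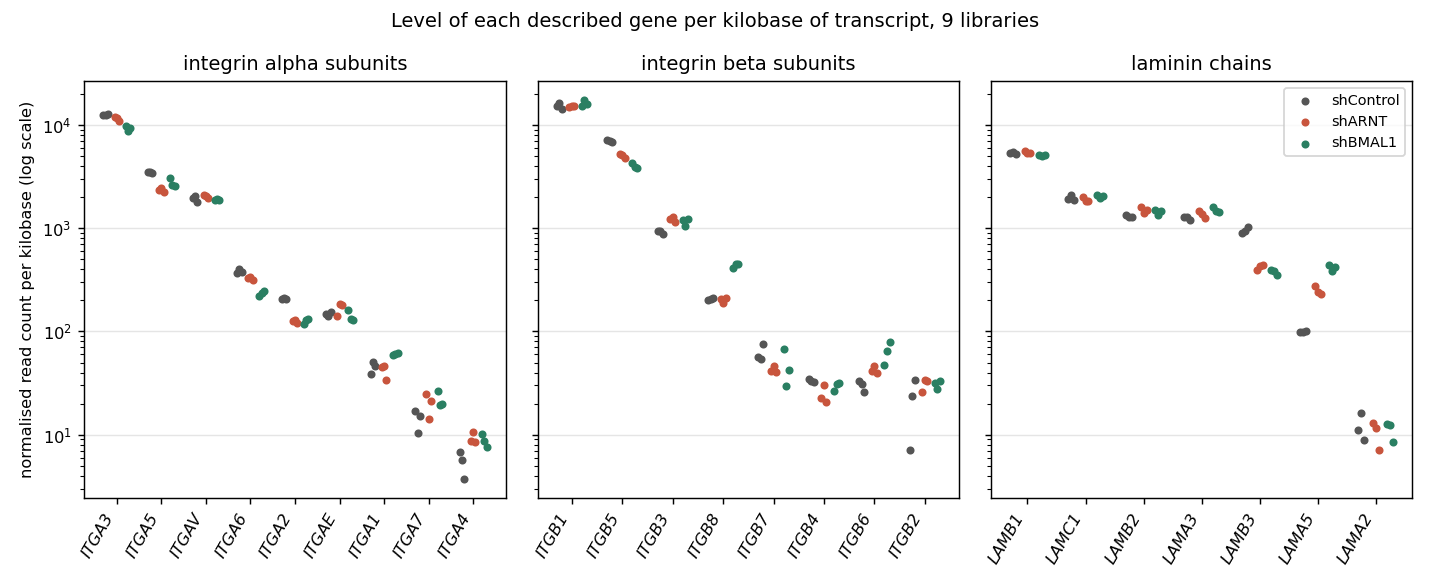
Normalised read count per kilobase of canonical transcript (log axis) for the 24 described genes, with 1 point per library, 3 libraries per group, and genes ordered within each panel by their mean in shControl. ITGB1 and ITGA3 lead the integrins and LAMB1 leads the laminins in all groups, and LAMA5 moves from 98.8 in shControl to 250 in shARNT and 416 in shBMAL1.

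A gene was called changed at a DESeq2 adjusted p under 0.1 over all genes tested. In shARNT against shControl 13 of the 24 described genes were called, 8 lower and 5 higher. Among all 12947 genes with a mean of at least 50 counts the called share was 39.6%, with 21.2% lower and 18.4% higher, against 54.2%, 33.3% and 20.8% of the members. Without shControl replicate 3 or shARNT replicate 3 the count of lower members was 5, since ITGA3, ITGB4 and ITGB7 were not called, and without shARNT replicate 2 the count of higher members was 3, since ITGA4 and ITGB6 were not called. In shBMAL1 against shControl 14 of the 24 were called, 6 lower and 8 higher, which was 58.3%, 25% and 33.3% of the members, and the background was 47.6% called, 26.8% lower and 20.8% higher. In shBMAL1 against shARNT, called the direct comparison below, 8 of the 24 were called, 3 lower and 5 higher, which was 33.3%, 12.5% and 20.8% of the members against a background of 44.3%, 24.0% and 20.3%. Called changes of at least 1.5-fold were found for 4 members in shARNT (background 7.39%), 9 in shBMAL1 (background 13.7%) and 2 in the direct comparison (background 10.7%). These counts include ITGA4 in both knockdowns, which reached a mean of 50 counts only through the knockdown groups. The median size of the change, taken without sign, was 0.33 on the log2 scale for the members in shARNT and 0.43 in shBMAL1. Among all genes with a mean of at least 50 counts it was 0.16 and 0.22. In the direct comparison it was 0.14 for the members and 0.20 for all genes with that mean. The signed median of the members was near 0 in both knockdowns (−0.01 in shARNT and 0.00 in shBMAL1), since rises and falls balanced. In bulk RNA, fewer cells with a transcript and less of it per cell cannot be told apart.

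**Figure D2:**
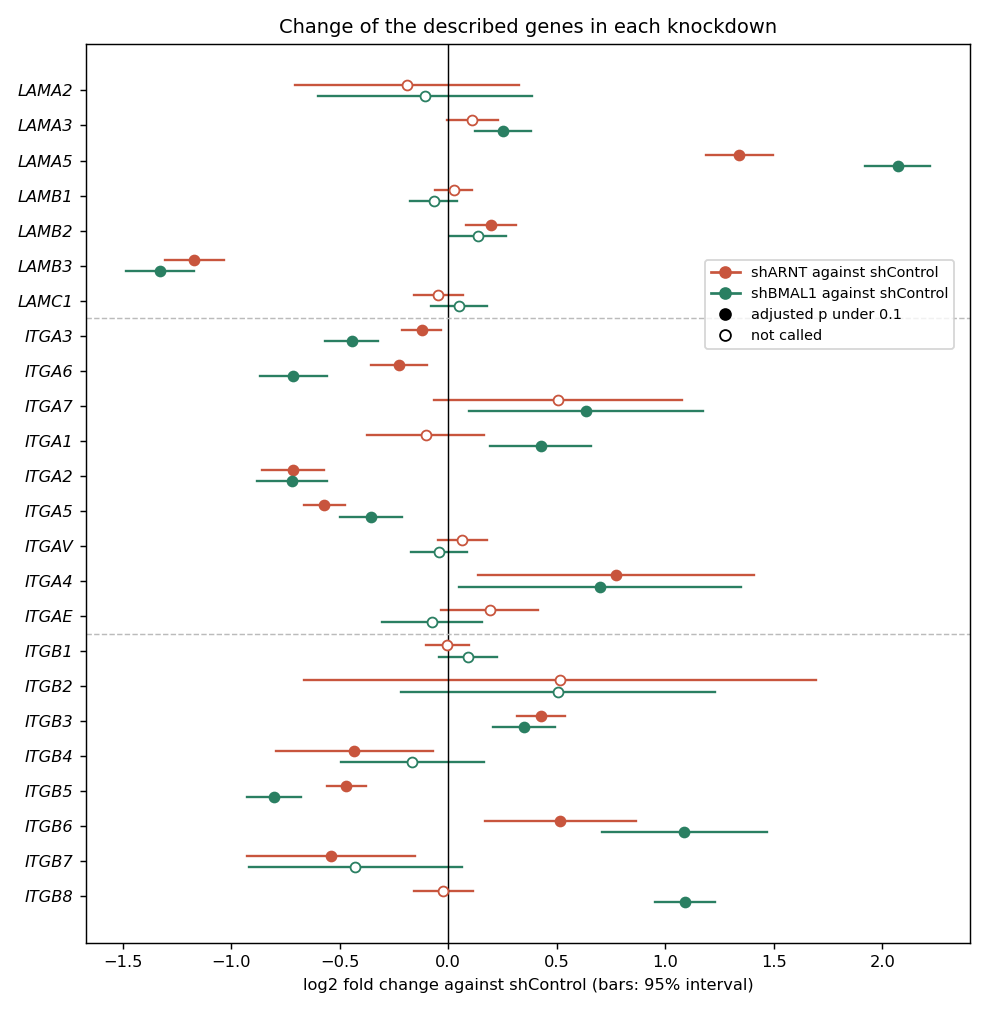
Log2 fold change against shControl for the 24 described genes in shARNT (red) and shBMAL1 (green), with bars for the 95% interval of the DESeq2 estimate and filled points for an adjusted p under 0.1. LAMA5 lies far to the right in both knockdowns and LAMB3 far to the left, and ITGB8 is raised only in shBMAL1.

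The laminin chains held the largest changes, and they went in opposite directions. LAMA5, the alpha chain of kidney and most adult basement membranes, had 1117, 1117 and 1153 normalised read counts in the shControl libraries. It had 3179, 2770.3 and 2612 in shARNT and 5031, 4390.0 and 4829.5 in shBMAL1. The 3 groups did not overlap, and every shBMAL1 library lay above every shARNT library. The log2 fold change was 1.34 (SE 0.08, adjusted p 9.30e-63) in shARNT, a 2.53-fold rise, and 2.07 (SE 0.08, adjusted p 2.03e-158) in shBMAL1, a 4.20-fold rise. The direct comparison gave 0.73 (SE 0.08, adjusted p 9.16e-17), so the rise was larger in shBMAL1.

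LAMA5 lies on chromosome 20 (GRCh37, 60883011 to 60942368, minus strand) and overlaps ADRM1, a proteasome subunit, and LAMA5-AS1 on the other strand. How strand was handled in counting is not stated, so reads of overlapping genes may have been exchanged. ADRM1 had 4749.9 ± 352 normalised read counts in shControl, against 5356 ± 219 in shARNT and 3376 ± 162 in shBMAL1. Its log2 fold change was 0.18 (adjusted p 0.0219) in shARNT and −0.49 (adjusted p 7.91e-10) in shBMAL1, and whether the counts share reads was not tested. LAMA5-AS1 had 7.70 ± 4.17, 16.3 ± 9.53 and 24.1 ± 4.48 counts, far below the counts of LAMA5.

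The other described alpha chains moved little. LAMA3, an alpha chain of skin and other stratified epithelia, rose slightly in shBMAL1, by 0.25 on the log2 scale (SE 0.07, adjusted p 0.000769), and was not called in shARNT (0.11, adjusted p 0.162). Without shARNT replicate 3 it was called there, at 0.17 (adjusted p 0.0273). The direct comparison of LAMA3 gave 0.15 (adjusted p 0.114), and it was called without shARNT replicate 1 (0.20, adjusted p 0.0464) or shBMAL1 replicate 3 (0.18, adjusted p 0.0792), with edgeR (adjusted p 0.0977) and in the fit of all 9 libraries (adjusted p 0.0786). LAMA2 had 117 ± 36.3, 102 ± 29.0 and 109 ± 22.4 counts in the 3 groups, which overlapped, and it was called in no comparison.

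LAMB3 is a beta chain that assembles with LAMA3 (chromosome 1, 209788215 to 209825770, minus strand). Its normalised read counts were 3570.0, 3787 and 4082 in shControl, 1588, 1730.3 and 1755 in shARNT, and 1597, 1557 and 1412 in shBMAL1. All 6 knockdown libraries lay below the control libraries, and the knockdown groups overlapped. On the log2 scale the change was −1.17 (SE 0.07, adjusted p 1.45e-61) in shARNT and −1.33 (SE 0.08, adjusted p 1.35e-59) in shBMAL1. The direct comparison gave −0.15, with a 95% interval of −0.32 to 0.01 and an adjusted p of 0.160.

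The chains of the more widespread laminins changed less. LAMB1 had 30248 ± 738 normalised read counts in shControl, against 30702 ± 598 in shARNT and 28915 ± 381 in shBMAL1 and was called in no comparison. LAMC1, the gamma chain of most laminins, had 15504 ± 967, 14976 ± 782 and 16076 ± 607 and was also called in none. LAMB2, a beta chain of the glomerular and the neuromuscular basement membrane, rose in shARNT by 0.20 (SE 0.06, adjusted p 0.00430). In shBMAL1 LAMB2 had a log2 fold change of 0.14 (adjusted p 0.105), and it was called there without shBMAL1 replicate 2 (0.19, adjusted p 0.0302), with edgeR (adjusted p 0.0931), with the filter on low counts (adjusted p 0.0864) and in the fit of all 9 libraries (adjusted p 0.0970).

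These changes altered the balance between chains of one kind, given here as ratios of levels per kilobase with no test. LAMA5 to LAMA3 was 0.0785 ± 0.00470 in shControl, against 0.184 ± 0.00647 in shARNT and 0.277 ± 0.0170 in shBMAL1 (SD, n = 3). LAMB3 to LAMB1 was 0.178 ± 0.0143, 0.0776 ± 0.00554 and 0.0741 ± 0.00503. In each of these ratios both knockdown groups lay on the same side of the control group without overlap. Between an alpha and a beta chain, LAMA3 to LAMB3 was 1.33 ± 0.134 in shControl, against 3.24 ± 0.418 in shARNT and 3.97 ± 0.155 in shBMAL1.

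**Figure D3:**
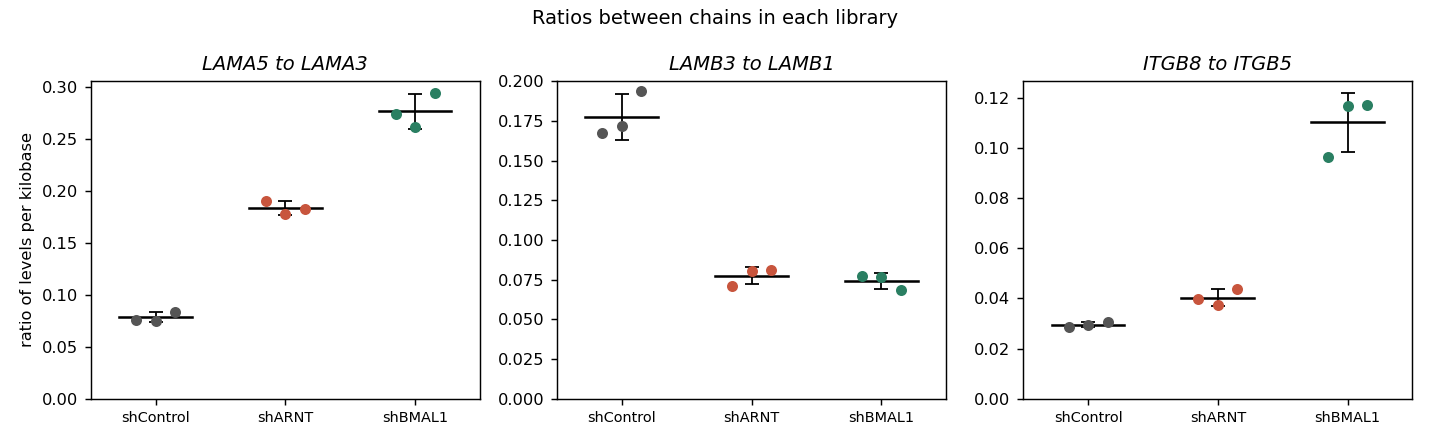
Ratios of levels per kilobase between 3 pairs of chains in each library (points), with the mean and SD of the 3 libraries of each group; all axes start at 0. The ratio of LAMA5 to LAMA3 climbs from 0.0785 to 0.184 and 0.277, that of LAMB3 to LAMB1 is lower in both knockdowns, and that of ITGB8 to ITGB5 is highest in shBMAL1, at 0.110.

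The alpha subunits that bind laminin were described in full, and those with high counts fell. ITGA6, which pairs with ITGB1 or ITGB4 (chromosome 2, 173292082 to 173371187, plus strand), had 2154, 2329 and 2175 normalised read counts in shControl, 1902, 1957 and 1826 in shARNT, and 1273, 1371 and 1423 in shBMAL1. The groups stepped down without overlap. The estimated log2 fold change was −0.22 (SE 0.07, adjusted p 0.00350) in shARNT and −0.71 (SE 0.08, adjusted p 1.05e-17) in shBMAL1, and the direct comparison gave −0.48 (SE 0.08, adjusted p 2.09e-08). ITGA3 had 61392 ± 560.4 counts in shControl, against 56244 ± 2534 in shARNT and 45157 ± 2843 in shBMAL1. It fell in shBMAL1 by 0.45 on the log2 scale (SE 0.06, adjusted p 1.68e-11) and was lower there than in shARNT by a log2 difference of −0.32 (adjusted p 1.19e-05). Its fall in shARNT was small, −0.12 (SE 0.05, adjusted p 0.0323), and it was not called without shControl replicate 3 (−0.12, adjusted p 0.107) or without shARNT replicate 3 (−0.09, adjusted p 0.209).

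ITGA7, a laminin receptor subunit of muscle, was near the lower limit of counts. It had 69.4, 43.0 and 62.7 normalised read counts in shControl, 101, 58.9 and 87.5 in shARNT, and 110.2, 80.6 and 81.3 in shBMAL1. The shARNT group overlapped with the control group and the shBMAL1 group did not. Expressed as log2, the change was 0.50 (SE 0.29, adjusted p 0.194) in shARNT and 0.63 (SE 0.28, adjusted p 0.0642) in shBMAL1. The call in shBMAL1 was lost without shControl replicate 2 (0.45, adjusted p 0.277), shControl replicate 3 (0.69, adjusted p 0.118) or shBMAL1 replicate 1 (0.47, adjusted p 0.308). ITGA7 (chromosome 12, 56078352 to 56110188, minus strand) overlaps METTL7B on the other strand, which had changes of similar size, 0.53 in shARNT and 0.51 in shBMAL1, and whether the counts share reads was not tested.

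Of the collagen receptors, ITGA2 fell to the same level in both knockdowns. ITGA2 is the alpha subunit of the α2β1 receptor (chromosome 5, 52285170 to 52390609, plus strand) and had 1602, 1646 and 1626 normalised read counts in shControl, 987, 1022 and 950.2 in shARNT, and 929, 1004 and 1033 in shBMAL1. Every knockdown library lay below every control library. The log2 fold change was −0.72 (SE 0.07, adjusted p 3.25e-21) in shARNT and −0.72 (SE 0.08, adjusted p 8.93e-17) in shBMAL1. The direct difference was 0.00, with a 95% interval of −0.17 to 0.18 (adjusted p 0.995). ITGA1, of the α1β1 receptor, had 484 ± 66.1 counts in shControl, against 449 ± 73.9 in shARNT and 651 ± 20.3 in shBMAL1. It rose in shBMAL1 by 0.43 (SE 0.12, adjusted p 0.00171) and was higher there than in shARNT by 0.53 (SE 0.13, adjusted p 0.000155), so the described collagen receptors went in opposite directions in shBMAL1. The gene PELO lies within ITGA1 on the same strand, and its log2 fold change in shBMAL1 was −0.39 (adjusted p 0.000713).

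Of the alpha subunits that recognise the RGD motif of fibronectin and vitronectin, ITGA5 fell and ITGAV was called in no comparison. ITGA5, of the fibronectin receptor α5β1, had 14841 ± 168 normalised read counts in shControl, against 9972 ± 426 in shARNT and 11605 ± 1114 in shBMAL1. On the log2 scale the change was −0.57 (SE 0.05, adjusted p 2.38e-29) in shARNT and −0.36 (SE 0.07, adjusted p 7.26e-06) in shBMAL1. ITGA5 was higher in shBMAL1 than in shARNT by 0.22 (SE 0.07, adjusted p 0.0148), a call that was lost without shARNT replicate 3 (0.18, adjusted p 0.109). ITGAV, which pairs with 5 of the beta subunits described below, had 13651 ± 911, 14253 ± 503 and 13258 ± 210.4 counts, with a log2 fold change of 0.07 (95% interval −0.05 to 0.18) in shARNT and −0.04 (−0.17 to 0.08) in shBMAL1.

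ITGA4, the alpha subunit of the receptor for VCAM1, was measured at low counts of 46.3, 39.0 and 25.3 in shControl, 59.4, 71.7 and 57.6 in shARNT, and 68.5, 59.5 and 51.9 in shBMAL1. Both knockdown groups lay above the control group. The gene had a mean of 36.8 ± 10.7 in shControl and reached the mean of 50 counts over the 9 libraries only through the knockdown groups, so its rise is given as a description. Its log2 fold change was 0.77 (SE 0.32, adjusted p 0.0564) in shARNT and 0.70 (SE 0.33, adjusted p 0.0955) in shBMAL1. In shARNT the call was lost without shControl replicate 2 or 3 or without any of the 3 shARNT libraries, with adjusted p from 0.113 to 0.262. In shBMAL1 it was lost without shControl replicate 2 or 3 or without any of the 3 shBMAL1 libraries, with adjusted p from 0.124 to 0.368, and with TMM size factors (adjusted p 0.103). ITGA4 (chromosome 2, 182321929 to 182403667, plus strand) overlaps CERKL on the other strand, which had 49.0 ± 3.80, 70.1 ± 5.11 and 134 ± 21.8 counts in the 3 groups, and whether the counts share reads was not tested. ITGAE, the receptor subunit for E-cadherin on lymphocytes in epithelia, had 564 ± 23.8, 643 ± 91.6 and 536 ± 68.4 counts. It was not called in any comparison, though it was called in shARNT without shARNT replicate 1 (0.30, adjusted p 0.0326) and in the direct comparison without replicate 1 of shARNT (−0.38, adjusted p 0.0240) or of shBMAL1 (−0.37, adjusted p 0.0275), with edgeR (adjusted p 0.0775), with the filter on low counts (adjusted p 0.0943) and in the fit of all 9 libraries (adjusted p 0.0832).

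Of the beta subunits that pair with ITGAV, ITGB5 fell and ITGB3 and ITGB6 rose in both knockdowns. ITGB8 rose in shBMAL1 only, and ITGB1 was called in neither. ITGB5 binds vitronectin with ITGAV (chromosome 3, 124480795 to 124620265, minus strand). Its normalised read counts were 31519, 30732 and 30479 in shControl, 23028, 22474 and 21345 in shARNT, and 19046, 17246 and 16971 in shBMAL1. The groups stepped down without overlap. The estimated log2 fold change was −0.47 (SE 0.05, adjusted p 7.45e-22) in shARNT and −0.80 (SE 0.06, adjusted p 7.41e-35) in shBMAL1, and the direct comparison gave −0.33 (SE 0.07, adjusted p 4.80e-06). ITGB3, the other vitronectin receptor subunit, rose from 5437 ± 158 in shControl to 7292 ± 422 in shARNT and 6929 ± 578 in shBMAL1, by 0.43 (SE 0.06, adjusted p 1.98e-12) and 0.35 (SE 0.07, adjusted p 1.82e-05). As a ratio of levels per kilobase, ITGB5 to ITGB3 was 7.61 ± 0.174 in shControl, against 4.09 ± 0.165 in shARNT and 3.44 ± 0.304 in shBMAL1.

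ITGB8 and ITGB6 form with ITGAV the receptors known for activating latent TGF-β. ITGB8 (chromosome 7, 20370325 to 20455377, plus strand) had 1818, 1832 and 1889 normalised read counts in shControl, 1860.1, 1695 and 1888 in shARNT, and 3713, 4067 and 4022 in shBMAL1. Control and shARNT libraries overlapped, and every shBMAL1 library lay far above both. Expressed as log2, the change was −0.02 (95% interval −0.16 to 0.11, adjusted p 0.859) in shARNT and 1.09 (SE 0.07, adjusted p 4.90e-51) in shBMAL1. The direct comparison gave 1.12 (SE 0.07, adjusted p 8.93e-48), the largest difference between the knockdowns among the described members.

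ITGB6 (chromosome 2, 160956178 to 161056824, minus strand) had 153, 143 and 119 normalised read counts in shControl, 194, 214 and 185 in shARNT, and 221, 298 and 364 in shBMAL1. The 3 groups did not overlap, and the shBMAL1 libraries were spread widely. The log2 fold change was 0.52 (SE 0.18, adjusted p 0.0150) in shARNT and 1.09 (SE 0.19, adjusted p 2.09e-07) in shBMAL1, and 0.58 (SE 0.18, adjusted p 0.00639) in the direct comparison. The call in shARNT was lost without shControl replicate 3 (0.42, adjusted p 0.111) or shARNT replicate 2 (0.46, adjusted p 0.114). The direct call was lost without shBMAL1 replicate 3 (0.39, adjusted p 0.131).

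The remaining beta subunits gave few firm changes. ITGB1 had 56876 ± 3312 normalised read counts in shControl, against 56583 ± 579 in shARNT and 60709 ± 3908 in shBMAL1, with a log2 fold change of −0.00 (95% interval −0.10 to 0.09) in shARNT and 0.09 (−0.04 to 0.23) in shBMAL1. It was not called in the direct comparison (0.10, adjusted p 0.241) but was called without shBMAL1 replicate 1 (0.14, adjusted p 0.0503). ITGB4 fell from 196 ± 6.64 to 145 ± 30.8 in shARNT, by 0.43 on the log2 scale (SE 0.18, adjusted p 0.0612). This call held in the fit without shARNT replicate 2 (−0.62, adjusted p 0.0156) and was lost without any other single library, with adjusted p from 0.115 to 0.293. In shBMAL1 ITGB4 had 175 ± 17 counts (−0.17, adjusted p 0.516). ITGB4 overlaps GALK1 on the other strand.

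ITGB7, the partner of ITGA4 and ITGAE on lymphocytes, was lower in shARNT, with 120.0 ± 9.32 normalised read counts against 175 ± 34.4 in shControl (log2 fold change −0.54, SE 0.20, adjusted p 0.0245). This call was lost without shControl replicate 3 (−0.37, adjusted p 0.244) or shARNT replicate 3 (−0.50, adjusted p 0.113). In shBMAL1 it had 129.9 ± 53.9 counts and was not called (−0.43, adjusted p 0.198), and without shBMAL1 replicate 1 it was called (−0.80, adjusted p 0.00802). ITGB7 overlaps ZNF740 on the other strand, and whether the counts share reads was not tested. Of the members given above, ITGAE overlaps HASPIN and LAMB1 overlaps DLD in the same way. ITGB2 of leukocytes had 20.1, 66.0 and 96.0 counts in shControl, the widest spread relative to its mean of any described member in that group. ITGB2 was not called in shARNT (0.52, adjusted p 0.582) or in shBMAL1 (0.51, adjusted p 0.33). ITGB2 overlaps ITGB2-AS1 on the other strand, which had 6.37 ± 0.612, 16.1 ± 5.85 and 14.2 ± 3.81 counts in the 3 groups. ITGB2 itself was called without shControl replicate 3, in shARNT (1.01, adjusted p 0.0455) and in shBMAL1 (0.999, adjusted p 0.0509). Without shControl replicate 1, the library with 20.1 counts, its change was 0.098 in shARNT and 0.088 in shBMAL1 (adjusted p 0.875 in each).

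**Figure D4:**
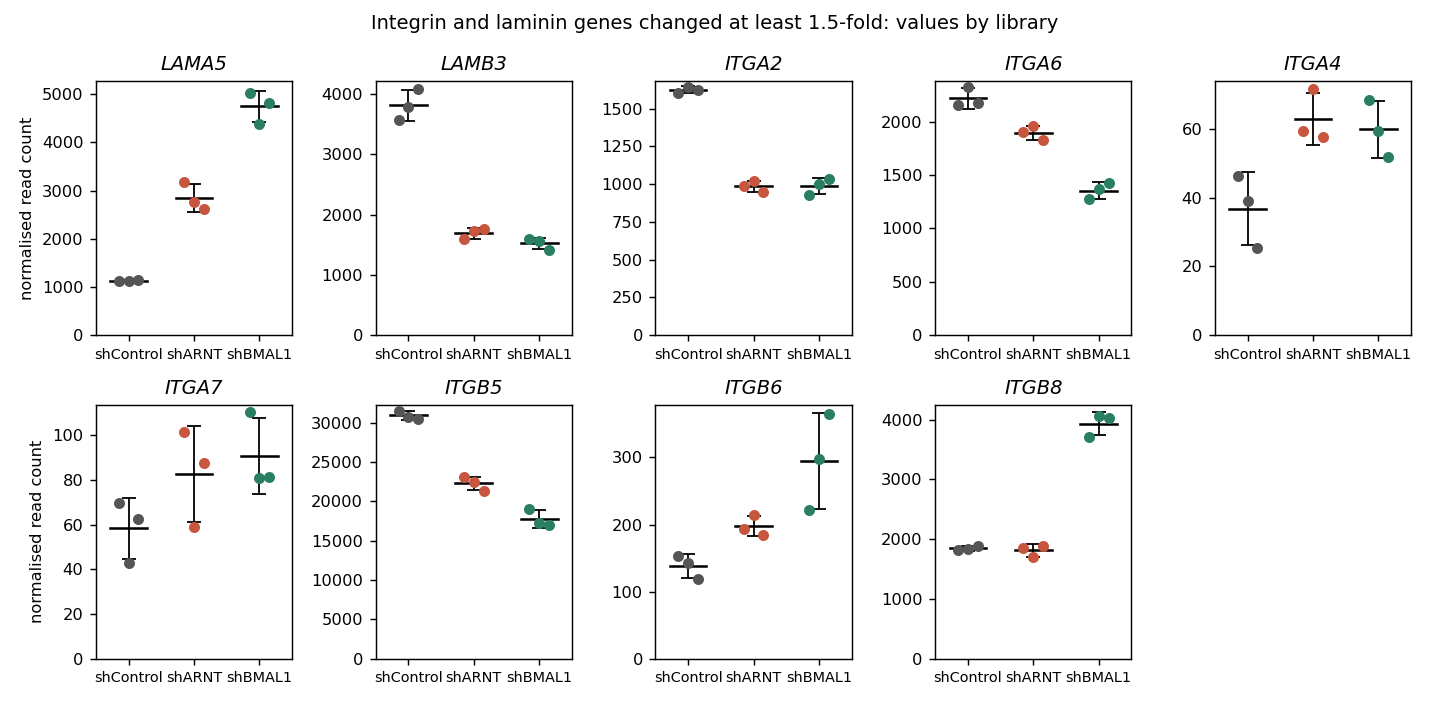
Normalised read count in each library (points) with the mean and SD (n = 3) of shControl, shARNT and shBMAL1, for the 9 members called in at least 1 comparison with a change of at least 1.5-fold; all axes start at 0. LAMA5 rises and ITGB5 and ITGA6 fall in 2 steps from shControl through shARNT to shBMAL1, LAMB3 is lower in both knockdowns, and ITGB8 is raised only in shBMAL1.

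Members that bind to or act with each other can be read side by side. In shARNT the called members among the 24 were the falling ITGA2, ITGA3, ITGA5, ITGA6, ITGB4, ITGB5, ITGB7 and LAMB3 and the rising ITGA4, ITGB3, ITGB6, LAMA5 and LAMB2. In shBMAL1 they were the falling ITGA2, ITGA3, ITGA5, ITGA6, ITGB5 and LAMB3 and the rising ITGA1, ITGA4, ITGA7, ITGB3, ITGB6, ITGB8, LAMA3 and LAMA5. In the direct comparison ITGA3, ITGA6 and ITGB5 were lower in shBMAL1 than in shARNT, and ITGA1, ITGA5, ITGB6, ITGB8 and LAMA5 were higher.

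Genes that work with integrins and laminins were counted from 5 lists, again among genes with a mean of at least 50 counts and beside the same background shares, which were 21.2% lower and 18.4% higher in shARNT and 26.8% lower and 20.8% higher in shBMAL1. Of 43 such genes for proteins of the adhesion complex, which links integrins to actin, 21 were lower and 5 higher in shARNT, with a median log2 fold change of −0.17, and 20 were lower and 5 higher in shBMAL1, with a median of −0.15. These were 48.8% and 46.5% lower, above the background, and 11.6% higher in both, below it. The 5 lists were chosen with earlier results of these data known, so shares beside the background are a description and not a test. Over all genes with a mean of at least 50 counts the median log2 fold changes were −0.00 and −0.02. The count of 5 higher in shARNT became 2 without shControl replicate 1, shARNT replicate 1 or shARNT replicate 2 and 3 without shControl replicate 2 or with TMM size factors. The most lowered in shARNT were RSU1, which binds the ILK complex (−0.65, adjusted p 1.77e-31), and the scaffold NEDD9 (−0.60, adjusted p 2.21e-23), and the most raised were KANK2 (0.69, adjusted p 6.71e-29) and TNS3 (0.37, adjusted p 4.16e-08). KANK2 and TNS3 were also higher in shBMAL1, each by 0.34 (adjusted p 0.000369 and 3.53e-06). RSU1 was not called in shBMAL1 (−0.10, adjusted p 0.225). NEDD9 went the other way in shBMAL1, where it was higher by 0.24 (adjusted p 0.00235). In shBMAL1 the paxillin relative LPXN (−1.40, adjusted p 7.14e-60) and VASP, which promotes actin filament growth (−1.14, adjusted p 7.10e-40), fell most. The kinases FYN (1.14, adjusted p 7.50e-19) and PTK2B (0.55, adjusted p 0.0138) rose most there. In shARNT LPXN was also lower (−0.48, adjusted p 6.11e-14), while VASP (−0.14, adjusted p 0.148), FYN (−0.19, adjusted p 0.326) and PTK2B (−0.25, adjusted p 0.442) were not called. FYN had 279.6 ± 24.2 normalised read counts in shControl, against 244 ± 11.6 in shARNT and 615 ± 38.1 in shBMAL1.

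Of 7 genes for hemidesmosome proteins and tetraspanins, 3 were lower and 1 higher in shARNT (42.9% and 14.3%), and 2 were lower and 2 higher in shBMAL1 (28.6% each). In a list of this size 1 gene moves a share by 14.3 percentage points, and the shBMAL1 shares were near the background. The single gene higher in shARNT was lost without shControl replicate 1, shARNT replicate 1 or shARNT replicate 3, the count was 2 without shControl replicate 2, and in shBMAL1 the count of higher genes was 1 without shControl replicate 1. PLEC, which ties ITGB4 to keratin, fell by 0.58 on the log2 scale in shARNT (adjusted p 6.68e-26) and by 0.64 in shBMAL1 (adjusted p 3.85e-16). The tetraspanin CD82 fell by 0.54 (adjusted p 2.78e-20) and by 1.16 (adjusted p 1.48e-50). The genes that rose were DST in shARNT (0.17, adjusted p 0.0602) and, in shBMAL1, the tetraspanins CD81 (0.21, adjusted p 0.0160) and CD151, a partner of the laminin-binding integrins (0.36, adjusted p 9.77e-06). DST was not called in shBMAL1 (0.03, adjusted p 0.795) and CD151 was not called in shARNT (−0.10, adjusted p 0.117). CD81 was lower in shARNT (−0.23, adjusted p 0.00264), and so went in opposite directions in the knockdowns.

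Of 11 genes for other basement membrane proteins, 8 were lower and 1 higher in shARNT (72.7% and 9.09%) and 5 were lower and 3 higher in shBMAL1 (45.5% and 27.3%), against the background of 21.2% and 18.4% and of 26.8% and 20.8%. Nidogens join laminin to collagen IV, and their genes moved apart. NID1 had 1940.4 ± 202 normalised read counts in shControl, against 1219 ± 116 in shARNT and 869 ± 16.4 in shBMAL1, with log2 fold changes of −0.67 (adjusted p 3.72e-12) and −1.16 (adjusted p 3.30e-34). NID2 rose, by 0.29 in shARNT (adjusted p 0.000258) and by 0.81 in shBMAL1 (adjusted p 5.15e-20). PXDN, the peroxidase that crosslinks collagen IV, fell in both, by 0.72 (adjusted p 5.86e-18) and 0.86 (adjusted p 2.33e-19), and the collagen IV chain COL4A5 rose in shBMAL1 by 0.78 (adjusted p 3.36e-09) and was not called in shARNT (−0.03, adjusted p 0.921).

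Of the 6 non-integrin laminin receptors, 3 were lower and 2 higher in shARNT (50% and 33.3%) and 2 were lower and 4 higher in shBMAL1 (33.3% and 66.7%), shares that rest on few genes. BCAM, a receptor for the LAMA5 chain, had 350.2, 333 and 334 normalised read counts in shControl, 698, 650.1 and 669.9 in shARNT, and 1323, 1317 and 1510.0 in shBMAL1. The groups did not overlap and stood in the same order as those of LAMA5. The log2 fold change of BCAM was 0.99 (SE 0.10, adjusted p 1.58e-19) in shARNT and 2.03 (SE 0.10, adjusted p 7.74e-85) in shBMAL1. DAG1, the precursor of dystroglycan, fell by 0.19 (adjusted p 0.000746) and 0.25 (adjusted p 0.000787). The syndecans differed among themselves, and those called in both knockdowns kept their direction. SDC2 was higher in shARNT (0.38, adjusted p 0.000538) and in shBMAL1 (0.42, adjusted p 0.000363), and SDC1 was lower in shARNT (−0.16, adjusted p 0.0496) and in shBMAL1 (−0.50, adjusted p 1.56e-11). SDC4 was higher in shBMAL1 (0.50, adjusted p 1.32e-05) and was not called in shARNT (0.03, adjusted p 0.803). RPSA was lower in shARNT (−0.17, adjusted p 0.0109) and higher in shBMAL1 (0.19, adjusted p 0.0478), but it has many near-identical pseudogenes, so its count is uncertain.

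Of 14 genes for other integrin ligands, 4 were lower and 5 higher in shARNT (28.6% and 35.7%), and 3 were lower and 9 higher in shBMAL1 (21.4% and 64.3%), where the background was 26.8% lower and 20.8% higher. SPP1, the secreted ligand osteopontin of ITGAV integrins, rose by 0.58 in shARNT (adjusted p 1.38e-21) and by 1.29 in shBMAL1 (adjusted p 6.18e-87). TGFBI, a matrix protein induced by TGF-β, went in opposite directions, by −0.48 in shARNT (adjusted p 4.17e-16) and 0.87 in shBMAL1 (adjusted p 4.04e-37), from 88035 ± 5072 normalised read counts in shControl to 62953 ± 3559 and 161200.0 ± 8954. LTBP1, which holds latent TGF-β in the matrix, fell in shARNT by 1.17 on the log2 scale (adjusted p 1.68e-05) and was not called in shBMAL1 (0.25, adjusted p 0.291). VCAM1, the ligand of ITGA4, rose in shARNT by 0.57 (adjusted p 4.88e-29) and in shBMAL1 by 0.33 (adjusted p 3.56e-05). In shBMAL1 the matrix proteins TNC (−0.85, adjusted p 1.18e-24) and FBN1 (−0.41, adjusted p 0.000118) were the most lowered. In shARNT TNC was lower too (−0.34, adjusted p 9.50e-06) and FBN1 was not called (−0.14, adjusted p 0.254).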

How the data were processed

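Stranded mRNA libraries of 786-O cells (shControl, shARNT and shBMAL1, 3 each) were grouped by their labels. The values were estimated counts deposited by the authors as linear total reads per gene. The methods of the study name SeqMan NGen, ArrayStar and GRCh37, while the submitters' processing notes name STAR and hg38, so which route made the table, its annotation and its strand setting were not settled. A stand-in value of 0.009 (46.3% of cells) was set to 0, fractional values (6.14% of the others) were rounded, 53 duplicate rows were added together, and 28 rows whose symbols had become dates were kept unnamed. Library pairs of 1 group differed beyond sampling noise (chi-square per degree of freedom 7.60 to 17.6), so none was a copy.

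All genes of the 6 libraries in a comparison entered one fit of DESeq2 (version 1.42.0, R 4.3.3), scaled by median-of-ratios size factors. Its two-sided Wald test was used with Benjamini-Hochberg adjustment after independent filtering at 0.1, and genes were called at an adjusted p under 0.1, as in the study. Normalised read counts used size factors over all 9 libraries. The fit was also run on simulated counts that gave every gene the same variation beyond sampling noise, so genes of wider spread were not covered. Positions and canonical transcript lengths came from GENCODE lifted to GRCh37, and upstream sequences from RefSeq (GRCh38.p14). The members and lists were chosen with earlier results of these data known. Of the 38 genes that the choice by symbol takes, 1 is not reported here and 37 were accounted for. Values per library were given for members called with at least 1.5-fold, and the 2 most lowered and 2 most raised called genes of each list were named. ITGB2 and BCAM were given per library after their values were seen. Alternatives were edgeR version 4.0.16 (quasi-likelihood test, TMM), TMM size factors, a filter of 10 counts in 3 libraries, a threshold of 0.05, a 1.5-fold minimum, a fit of all 9 libraries, a replicate block, and leaving out each library.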

Additional observations from a re-analysis of the deposited data

How the results depend on the processing

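With a minimum change of 1.5-fold, the members lower in shARNT went from 8 to 2 and those higher from 5 to 2. In shBMAL1 they went from 6 to 4 and from 8 to 5, and in the direct comparison from 3 to 0 and from 5 to 2. Leaving out 1 library at a time gave 5 to 8 members lower in shARNT, with the lowest count without shControl replicate 3 or shARNT replicate 3, when ITGA3, ITGB4 and ITGB7 were lost. It gave 3 to 5 members higher in shARNT, with the lowest count without shARNT replicate 2, when ITGA4 and ITGB6 were lost. Every other count of members under the alternatives stayed within 1.5 times its value. Same-numbered libraries did not deviate together (correlations −0.153 to 0.105), so the numbers were not taken as pairs. With the replicate block, 6 members were lower and 4 higher in shARNT, 6 and 6 in shBMAL1, and 3 and 6 in the direct comparison. ITGA4, ITGB4, ITGB7 and LAMA4 in shARNT (adjusted p 0.146, 0.142, 0.110 and 0.133) and ITGA4 and ITGA7 in shBMAL1 (0.183 and 0.140) were then not called, and LAMA3 was called in the direct comparison (0.0557).

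Among the fold changes of members under the alternatives, 723 kept their direction and their side of the threshold, 37 fell short of it, 20 passed it and 23 changed sign. The changes of sign came when 1 library was left out and touched uncalled values near 0, and their cause was not tested. In shARNT the leave-one-out ranges were −0.21 to 0.028 for ITGA1, −0.045 to 0.040 for ITGB1, −0.051 to 0.025 for ITGB8, −0.37 to 0.078 for LAMA2 and −0.092 to 0.0052 for LAMC1. In shBMAL1 they were −0.095 to 0.0018 for ITGAV and −0.29 to 0.16 for LAMA2. In the direct comparison they were −0.032 to 0.047 for ITGA2, −0.18 to 0.030 for ITGA4, −0.062 to 0.31 for ITGA7, −0.12 to 0.066 for ITGB2, −0.25 to 0.35 for ITGB7 and −0.13 to 0.25 for LAMA2. The counts from the lists of partner genes moved by more than 1.5 times in 26 cases with the 1.5-fold minimum, in 10 with 1 library left out and in 6 under the other alternatives, and stayed within it in 4, 170 and 174. Calls that appeared or were lost when 1 library was left out concerned genes of few counts (ITGA4, ITGA7, ITGB2, ITGB4, ITGB6, ITGB7 and LAMA4) and of many (ITGA3, ITGA5, ITGAE, ITGB1, LAMA3 and LAMB2), and the part of depth was not tested.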
